A study of Rattus norvegicus with 6 samples.

Results

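Single-exon loci without a reference gene are stretches of rat brain transcription that the assembly joined into a locus whose transcripts have no splice junction. They carry no reference gene, the label for a match to a gene of the Ensembl annotation that guided the assembly. They may still match an Ensembl gene on 11 autosomes, where no locus of any kind carries this label. They were taken from the deposited annotation (rn6) as the autosomal loci in which no transcript carried a reference gene and every transcript had exactly 1 exon, and 49 loci within 3 gene clusters (on chromosomes 4, 15 and 20) and 113 on other chromosomes were left out of the 3543 that met this rule on any chromosome. This left 3381 of the 24746 loci of the annotation, or 13.7%. For comparison, 12867 loci had no reference gene and at least 1 transcript of several exons, and 8336 loci had a reference gene.

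PolyA RNA of the whole brain was sequenced from 3 male BNLx rats (strain BN-Lx/CubPrin) and 3 male SHR rats (strain SHR/OlaIpcvPrin), all naïve, with 1 library a rat. Both are inbred strains, so the 3 rats of a group share a genotype, and neither group received a treatment. The libraries held from 11747048 to 41333078 expected counts, and the 3 SHR libraries (21745966 or more) were deeper than 2 of the 3 BNLx libraries. In a bulk library of a whole brain, fewer cells of a type and less RNA per cell cannot be told apart.

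A transcript without introns in an assembly can be an unspliced messenger or long noncoding RNA, an RNA transcribed near an enhancer, a processed pseudogene, the detached end of a longer 3′ untranslated region, or coverage from inside an unspliced intron. Because such a transcript crosses no splice junction, an aligner has no splice signal from which to read its strand. The library kit (Illumina TruSeq RNA) was not a strand-marking kit, so the strand of these loci is the one the deposited annotation gives and reads over a gene and its antisense partner cannot be told apart. The paper also states that contigs without a strand were taken out. Shares by strand below therefore cover only loci to which the assembly gave a strand.

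The loci were spread evenly over the autosomes, but the reference label was not. No locus on chromosomes 1 and 10 to 19 carried a reference gene in the annotation analysed here, whereas on the other 9 autosomes 55.1% to 60.2% of loci did. Single-exon loci without a reference gene made up 14.2% of the 13294 loci on those 9 autosomes (10.9% to 15.5% by chromosome) and 14.3% of the 10413 loci on the 11 autosomes with no reference gene (12.2% to 17.0%). Of the 3381 loci, 1890 lay on the 9 autosomes and 1491 on the 11. For the 1491, the lack of a reference gene is therefore a property of the whole chromosome in this file and says nothing about whether Ensembl holds a gene there. The same holds for multi-exon loci without a reference gene, a class that includes every multi-exon locus of those 11 autosomes.

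**Figure D1:**
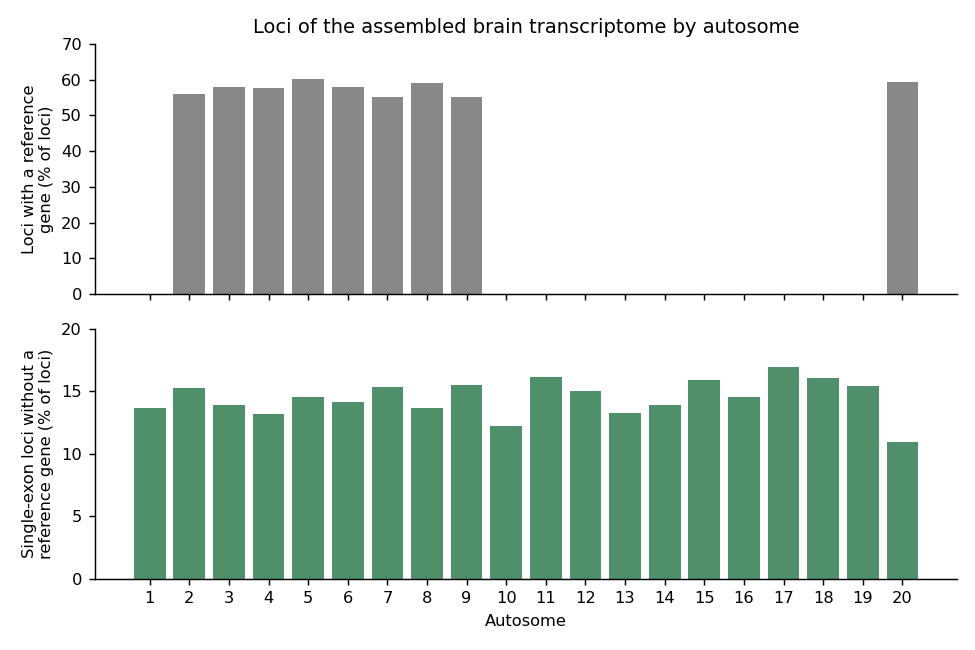
The upper bars give the percent of loci on each autosome that carried a reference gene, and the lower bars the percent that were single-exon loci without a reference gene. The upper bars are at 0 on chromosomes 1 and 10 to 19 and between 55.1% and 60.2% elsewhere, and the lower bars lie between 10.9% and 17.0% on all autosomes.

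Most loci were short and simple. The longest transcript of a locus had a median of 1150 bases (quartiles 554 and 2397, range 200 to 26494). A single transcript made up 3028 loci, and 353 had 2 or more, of which 309 consisted of at least 2 blocks that did not overlap. The annotation placed 1693 loci on the plus strand and 1688 on the minus strand. Aptardi, the program of the study that adds transcripts with other polyadenylation sites, contributed 68 of the 3789 transcripts, in 55 loci. Of these 68, 59 ended short of the original transcript, by a median shift of -1633 bases, and 9 ended beyond it, by a median of 146 bases.

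Many of the loci lay near or across a spliced locus. Relative to the multi-exon loci of any kind, 1236 of the 3381 (36.6%) lay inside or over a multi-exon locus on the opposite strand, and 233 (6.89%) did so on the same strand. A further 341 (10.1%) began within 10 kb beyond the 3′ end of a multi-exon locus on the same strand, 254 (7.51%) ended within 10 kb before its 5′ end, and 467 (13.8%) lay within 10 kb on the opposite strand. The remaining 850 (25.1%) lay farther away. The share inside or over a multi-exon locus on the opposite strand was 33.9% on the 9 autosomes with reference genes and 39.97% on the other 11.

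Relative to loci with a reference gene, which exist for the 1890 loci of 9 autosomes, 488 (25.8%) lay inside or over such a locus on the opposite strand and 81 (4.29%) on the same strand. Within 10 kb on the same strand, 146 (7.72%) lay beyond the 3′ end and 110 (5.82%) before the 5′ end, and 247 (13.1%) were near on the opposite strand. The other 818 (43.3%) lay farther away, at a median distance of 55858.5 bases and at most 1845094 bases. The median level differed little by position, from 0.477 TPM before the 5′ end to 0.698 TPM inside a reference locus on the same strand.

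Exons themselves overlapped less often. In 488 loci (14.4% of 3381, and not the same loci as the 488 placed against reference genes) an exon covered exon bases of another locus on the opposite strand, and in 0 loci did so on the same strand. In 20 pairs, 2 single-exon loci had the same exon coordinates on both strands, and in 19 of the pairs the expected counts were equal within 0.05 in every library. An example is STRG.45433 and STRG.45434, on the plus and minus strand of chr14:46329443-46329902. Each was given 17197 expected counts over the 6 libraries, while the coverage of the genome alignment recorded for them corresponded to 191.6 and 18219 read pairs. The equal counts mean that the levels of the 2 strands were not measured separately.

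Most of these loci were at a low level. Their median level, as the mean TPM (an abundance scaled for length and library) over the 6 libraries, was 0.587 (quartiles 0.357 and 1.63). A mean of at least 1 TPM was reached by 1138 loci (33.7%), at least 10 TPM by 300 and at least 100 TPM by 51, and 69 loci had 0 in every library. Multi-exon loci without a reference gene had a median of 5.5 TPM and 74.8% of them reached 1 TPM. That class includes every multi-exon locus of the 11 autosomes with no reference gene, so its level is not that of unannotated loci alone. For multi-exon loci with a reference gene the median was 21.6 TPM and the share 92.8%. Among reference loci of 1 exon, 20.3% reached 1 TPM.

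**Figure D2:**
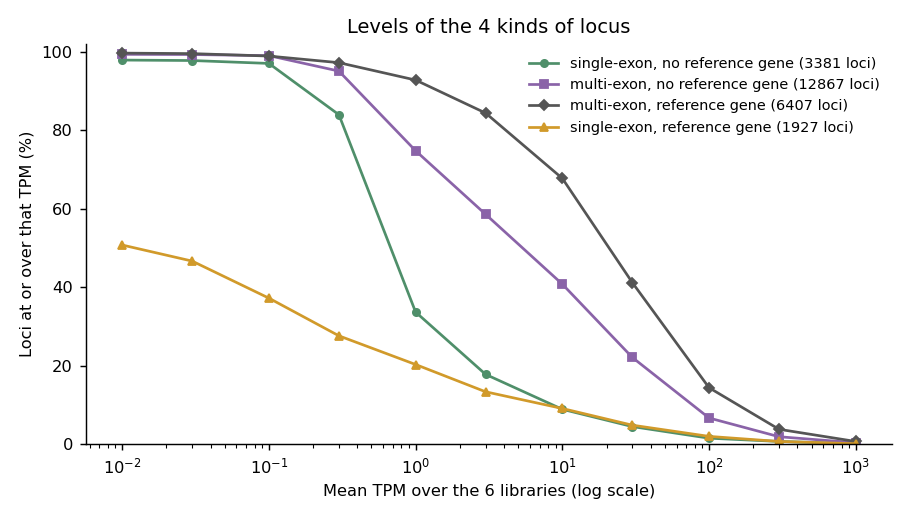
The percent of loci (y axis) at or over a mean TPM (x axis, log scale) is drawn for 4 kinds of locus. The curve of single-exon loci without a reference gene falls from 84.0% at 0.3 TPM to 33.7% at 1 TPM, while that of multi-exon loci without a reference gene passes 74.8% at 1 TPM. The latter include every multi-exon locus of the 11 autosomes with no reference gene.

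Loci whose exons overlapped another locus were higher, at a median of 2.76 TPM against 0.533 TPM for the 2893 that did not overlap. In some loci the expected counts were also far larger than the coverage recorded for them. The annotation records the coverage of each transcript in the merged alignment to the genome. From it the number of read pairs (of 200 bases) was computed and set beside the expected counts summed over the libraries. These aligned pairs are those recorded for the locus itself, not all reads aligned at its position. STRG.45433 and STRG.45434 above share coordinates but differ in aligned pairs. The median ratio of expected counts to aligned pairs was 1.13 for the 3381 loci. The ratio was 10 or more in 202 of them (5.97%), and these 202 held 53.0% of the expected counts of all 3381. Among loci with overlapping exons 23.6% had such a ratio, and among the others 3.01%. Multi-exon loci had it in 1.26% of cases without a reference gene and in 0.172% with one. Reference loci of 1 exon were closer to the single-exon loci without a reference gene, with such a ratio in 4.17% of loci, which held 44.1% of their counts. In 127 single-exon loci the ratio was under 0.1.

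**Figure D3:**
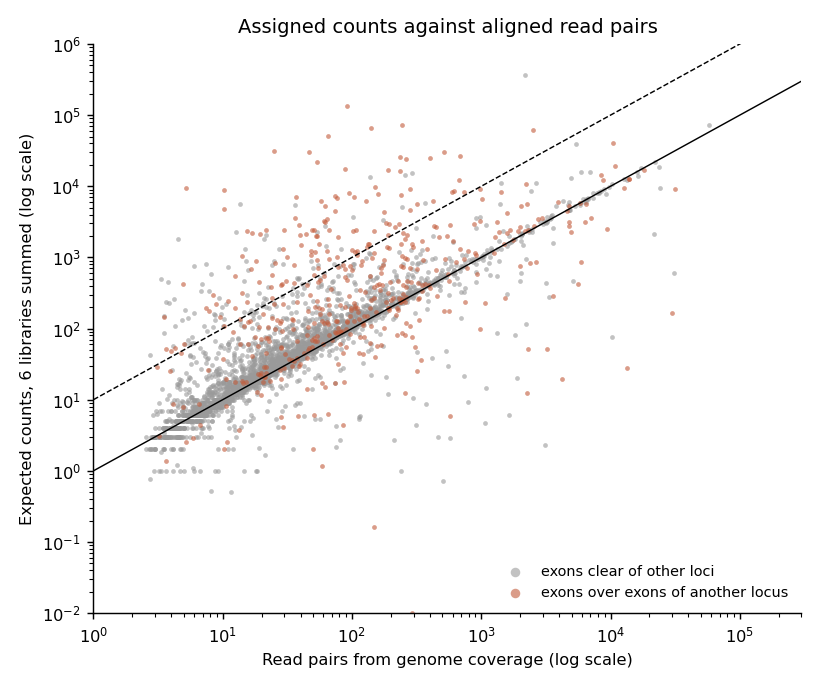
Expected counts summed over the 6 libraries (y axis) are plotted against read pairs from the genome coverage (x axis, both log scales) for 3312 loci, colored by whether their exons overlap another locus, and 69 loci at 0 counts are not drawn. The solid line marks equal numbers and the dashed line 10 times more counts than pairs, which 202 loci reach.

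The highest levels have to be read with this in mind. STRG.19427 (chr5:6372710-6373579, minus strand, 2 blocks, 64 bases beyond the 3′ end of the unnamed multi-exon locus STRG.19426) had by far the highest level, at 30496.6, 28854.88 and 23724.83 TPM in BNLx 1 to 3 and 30899.99, 23317.33 and 27046.37 TPM in SHR 1 to 3. The strains overlapped. It held 0.185% to 0.296% of all expected counts of a library, and its 369426 expected counts were 170 times the 2168 aligned pairs. STRG.23937 (chr6:31048821-31049068, minus strand, over exons of AABR07063462.1) followed among the loci with a high ratio, at means of 1720.4 ± 268 TPM in BNLx and 1363.7 ± 476 TPM in SHR (SD, n = 3), with a ratio of 1818. STRG.36076 (chr10:13537030-13537765, plus strand), over exons of the multi-exon locus STRG.36075, had a ratio of 1251. Aligned pairs were 5.18 for STRG.23937 and 24.7 for STRG.36076, against 6233 for AABR07063462.1 and 101713 for STRG.36075.

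Other loci among the 10 highest had counts close to their aligned pairs. STRG.48021 (chr15:65507150-65507974, minus strand) lay 1832797 bases from the nearest multi-exon locus and had 1580.3 ± 348 TPM in BNLx and 1594 ± 172 TPM in SHR (SD, n = 3), with a ratio of 1.25. STRG.26462 (chr7:11012840-11013376, minus strand) began 305 bases beyond the 3′ end of Tle5, a corepressor of the Groucho family, on the same strand, and its 18919 expected counts were whole numbers and 0.795 times the aligned pairs. It had 1117.7, 1193.56 and 1030.42 TPM in BNLx and 1046.96, 902.93 and 966.35 TPM in SHR. Those values overlap between strains, and the difference did not pass the test (log2 fold change -0.27, edgeR adjusted p = 0.621). Tle5 itself had a mean of 236 CPM (counts scaled to a common library size) in BNLx and 229.6 CPM in SHR, against 143 CPM and 119 CPM for STRG.26462.

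STRG.13050 (chr3:59165296-59166175, minus strand), 1383 bases from Cdca7, a gene of the cell cycle, on the opposite strand, had 875 ± 8.05 TPM in BNLx and 794 ± 112 TPM in SHR with a ratio of 7.86. STRG.45444 (chr14:46588203-46589066, plus strand) had a ratio of 7.22 and STRG.20904 (chr5:91125758-91130634, minus strand, 2333 bases from a gene of the 5_8S_rRNA family) one of 15.9. With STRG.45433 and STRG.45434 these are the 10 loci with the highest level, and none of them passed the test between strains (edgeR adjusted p from 0.541 to 0.994). Without SHR 1 and BNLx 3, STRG.36076 (log2 fold change -0.72, edgeR adjusted p = 0.00553), STRG.26462 (-0.45, adjusted p = 0.0145) and STRG.13050 (-0.53, adjusted p = 0.0141) passed and were lower in SHR. That fit leaves out the libraries most distant from the others of their strain, a choice that itself lowers the spread within strains. Its p-values come out too small for that reason and do not revise the result above. In that fit 216 of the 564 single-exon loci tested passed, as did 4393 of all loci, against 18 and 147 with all libraries.

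The 3381 loci together held 2.01%, 2.06% and 1.77% of the expected counts in BNLx 1 to 3 and 1.91%, 1.59% and 1.76% in SHR 1 to 3. The strains overlapped, with means of 1.94% ± 0.155 in BNLx and 1.75% ± 0.159 in SHR (SD, n = 3, two-sided exact permutation p = 0.2, where 3 against 3 libraries cannot go below 0.1). Loci with overlapping exons held 0.995% of counts in BNLx and 0.832% in SHR (exact permutation p = 0.2, n = 3), and the others 0.950% and 0.919% (exact permutation p = 0.5, n = 3). On the TPM scale, which weights short loci more, the share was 5.40% to 6.34% in BNLx and 5.27% to 6.17% in SHR. Between 2592 and 3042 of the loci had at least 1 count in a library, fewest in the shallowest library and most in the deepest.

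**Figure D4:**
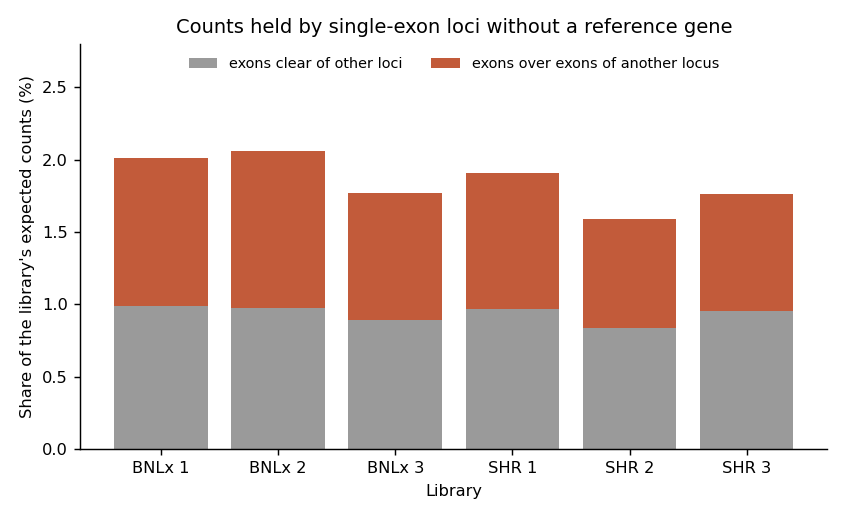
Bars give the percent of each library's expected counts that fell on single-exon loci without a reference gene (1 bar for each of 3 BNLx and 3 SHR libraries), split by exon overlap with another locus. The totals run from 1.59% in SHR 2 to 2.06% in BNLx 2, and the strains overlap.

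Replicates of these loci varied more than those of other loci. Across the 630 loci tested, the median biological coefficient of variation was 0.304, against 0.222 for all loci tested. Within the strains, SHR 1 and BNLx 3 were the most distant libraries. The root mean square difference in log2 CPM over the tested single-exon loci was 1.06 to 1.22 for pairs within a strain that held either library, and 0.481 (BNLx 1 and 2) and 0.628 (SHR 2 and 3) for the pairs that held neither. Over loci of all kinds the same 2 libraries stood apart, at 0.663 to 0.854 against 0.359 and 0.290. Of 44 markers of brain cells and of tissues beside the brain, 13 could be looked up by name, since the names exist on 9 autosomes, and markers of neurons, astrocytes, oligodendrocytes and microglia were present in all libraries. The summed level of 3 oligodendrocyte markers ran from 2504 to 5558 TPM in BNLx and from 1566 to 3256 TPM in SHR, that of 2 astrocyte markers from 701 to 858 TPM and from 920 to 1633 TPM, that of 3 neuron markers from 2745 to 4551 TPM and from 2078 to 3287 TPM, that of 3 microglia markers from 86.8 to 101 TPM and from 97.8 to 122 TPM, and that of 2 markers of the meninges from 14.0 to 28.8 TPM and from 28.9 to 41.6 TPM. Their part in the strain differences below was not tested.

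To ask which of these loci differed between BNLx and SHR, all loci with at least 50 counts in 2 of 3 replicates of at least 1 strain were tested together. Of the 3381 single-exon loci, 630 (18.6%) passed this filter, 417 of them in both strains, 38 in BNLx only and 175 in the deeper SHR libraries only. At an edgeR adjusted p of 0.05, 18 of the 630 (2.86%) differed, against a background of 1.02% of the 14471 loci tested. Of the 18, 11 were higher in SHR (background 0.504%) and 7 were lower in SHR (background 0.511%), and 15 had passed the filter through 1 strain only, so that a difference between the strains helped to bring them into the test. Of the 417 loci that passed the filter in both strains 3 differed (0.719%, background 0.504% of 13092), and of the 213 that passed in 1 strain only 15 did (7.04%, background 5.87% of 1379). Within each of these classes the share was near its background. DESeq2 called all 18 and 52 of the single-exon loci in total, with a background of 3.76% of its 14433 loci. The median log2 fold change was -0.01 for the 630 loci and 0.00 for all loci tested, and the median size of the change was 0.34 against 0.18, without matching for level. Single libraries decided the number: it was 3 without BNLx 1, 8 without BNLx 2, 19 without BNLx 3, 10 without SHR 1, 3 without SHR 2 and 5 without SHR 3, and 216 without both SHR 1 and BNLx 3, a fit in which 4393 of all loci passed. Over loci of all kinds the number moved too, from 147 with all libraries to 21, 42, 152, 126, 20 and 36 without 1 library, in the same order.

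In all 18 loci the strains did not overlap in any library, as in 134 of the 630 tested (21.3%, background 17.4% of all loci tested). Of the 18, 15 had no exon over exons of another locus, as did 394 of the 630, and 11 lay on the autosomes without reference genes, as did 334 of the 630. Against multi-exon loci of any kind, 6 lay inside or over one on the opposite strand, 1 on the same strand, 2 within 10 kb beyond a 3′ end, 1 within 10 kb before a 5′ end, 4 within 10 kb on the opposite strand and 4 farther away. Only STRG.52385, STRG.49233 and STRG.436 passed the test in all 6 fits that left out 1 library each. STRG.35257, STRG.1212 and STRG.24973 passed in none of those fits, and the other 12 passed in 1 to 3 of them. Some of these loci fell under the count filter once a library was left out and were then not tested. STRG.24973 was not tested without BNLx 1 or BNLx 2, nor STRG.1212 without SHR 1 or SHR 2. STRG.54646, STRG.38357, STRG.18466, STRG.48848 and STRG.7039 also went untested in some of those fits.

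**Figure D5:**
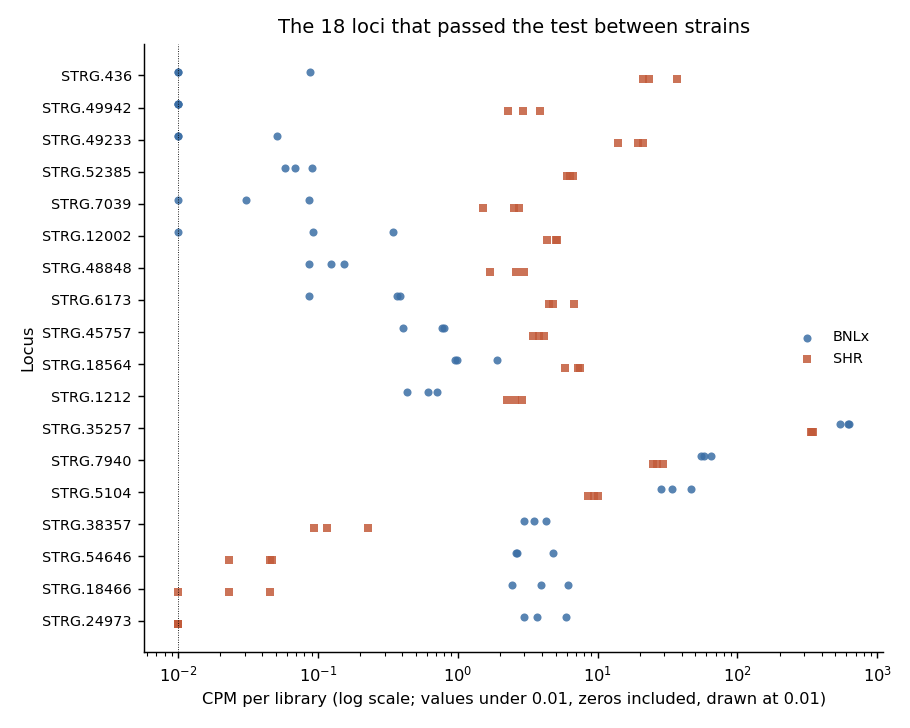
CPM in each of 3 BNLx (circles) and 3 SHR (squares) libraries (x axis, log scale, values under 0.01 drawn at 0.01) for the 18 single-exon loci that passed the test, ordered by fold change. STRG.436 at the top lies between 21.1 and 36.8 CPM in SHR and at 0.0874 CPM or less in BNLx.

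The 3 loci that passed with each library left out in turn had counts in every SHR library and stood at or near 0 in BNLx, and all lay more than 10 kb from any multi-exon locus. STRG.436 (chr1:20115919-20116581, plus strand, 663 bases) had 36.8, 21.1 and 23.2 CPM in SHR 1 to 3 and 0, 0 and 0.0874 CPM in BNLx 1 to 3. This rested on 2549 counts in SHR against 1 count in BNLx, a ratio of 1682 with a 95% counting interval of 302 to 66452 (edgeR adjusted p = 0.00462). On the TPM scale its mean was 116 ± 31.3 in SHR and 0.13 ± 0.225 in BNLx (SD, n = 3). Its nearest multi-exon locus, STRG.432, 17262 bases away, had 16.9 CPM in BNLx and 16.7 CPM in SHR.

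STRG.49233 (chr16:27234407-27236041, plus strand, 1635 bases) had 14.0, 19.5 and 20.97 CPM in SHR and 0.0506, 0 and 0 CPM in BNLx. The 1480 counts in SHR stood against 2 in BNLx, a ratio of 488 with a counting interval of 135 to 4035 (edgeR adjusted p = 0.00462). The nearest multi-exon locus was 163283 bases away.

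STRG.52385 (chr18:1744815-1747564, plus strand, 2 blocks) had 6.66, 6.01 and 6.39 CPM in SHR and 0.0586, 0.0902 and 0.0682 CPM in BNLx, and within each strain its libraries lay close together. Its log2 fold change was 6.38 ± 0.303 (SE, edgeR adjusted p = 0.0043). STRG.52384, a multi-exon locus at 16698 bases, had 4.33 CPM in BNLx and 5.76 CPM in SHR, and its difference did not pass the test (log2 fold change 0.41, edgeR adjusted p = 0.794).

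Among the other 8 loci that were higher in SHR, STRG.12002 (chr3:3940177-3941845, plus strand) lay inside Notch1, the gene of a transmembrane receptor that controls cell fate, on the opposite strand and clear of its exons. It had 5.04, 4.34 and 5.11 CPM in SHR and 0.0925, 0.347 and 0 CPM in BNLx (log2 fold change 5.17 ± 0.708 SE, edgeR adjusted p = 0.0336). Notch1 had 40.1 CPM in BNLx and 44.4 CPM in SHR, a difference that did not pass the test (log2 fold change 0.15, edgeR adjusted p = 0.83).

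STRG.6173 (chr1:252944113-252946488, plus strand) and STRG.49942 (chr16:69903294-69941729, minus strand, 3 blocks) also lay within multi-exon loci, which carried no gene name. STRG.6173, clear of the exons of STRG.6174 on the opposite strand, had 6.79, 4.77 and 4.47 CPM in SHR and 0.37, 0.0868 and 0.383 CPM in BNLx, all from whole counts (log2 fold change 4.14 ± 0.473 SE, edgeR adjusted p = 0.0179). STRG.6174 had 52.3 CPM in BNLx and 39.7 CPM in SHR (log2 fold change -0.40, edgeR adjusted p = 0.311). STRG.49942 had 0 counts in every BNLx library and 167, 62.0 and 50.3 counts in SHR 1 to 3, and against 3 counts per BNLx library it was at least 15.6-fold higher in SHR (edgeR adjusted p = 0.0257). Its counts were 0.0838 times the aligned pairs. STRG.49943, on the same strand, had 9.26 CPM in BNLx and 20.7 CPM in SHR (edgeR adjusted p = 0.521).

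STRG.18564 (chr4:157316621-157322858, minus strand, 6238 bases) began 5510 bases beyond the 3′ end of Tpi1, which encodes the glycolytic enzyme triosephosphate isomerase, on the same strand. It had 5.82, 7.44 and 7.30 CPM in SHR and 0.983, 0.956 and 1.90 CPM in BNLx (log2 fold change 2.43 ± 0.341 SE, edgeR adjusted p = 0.037). Tpi1 had 190.0 CPM in BNLx and 209 CPM in SHR (log2 fold change 0.14, edgeR adjusted p = 0.765). STRG.7039 (chr2:9512353-9512910, minus strand, 558 bases) was 13299 bases from Lysmd3 and had 2.54, 1.51 and 2.76 CPM in SHR and 0.0308, 0.0868 and 0 CPM in BNLx. Its 203 counts in SHR and 2 in BNLx gave a ratio of 67.0 with a counting interval of 18.3 to 557 (edgeR adjusted p = 0.0179).

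STRG.48848 (chr16:10852346-10857205, plus strand, 4860 bases) and STRG.1212 (chr1:57666939-57671473, plus strand, 4535 bases) were of similar length and each lay within 200 bases of a multi-exon locus of the opposite strand. STRG.48848 had 2.61, 2.97 and 1.69 CPM in SHR and 0.123, 0.0868 and 0.153 CPM in BNLx (log2 fold change 4.25 ± 0.433 SE, edgeR adjusted p = 0.0157). STRG.1212 had 2.56, 2.88 and 2.23 CPM in SHR and 0.709, 0.434 and 0.613 CPM in BNLx (log2 fold change 2.08 ± 0.310 SE, edgeR adjusted p = 0.0468). The expected counts of both were close to their aligned pairs, with ratios of 1.09 and 1.01. The last of the 8, STRG.45757 (chr14:72259389-72259994, plus strand), was 11050 bases from a multi-exon locus and had 3.82, 3.47 and 4.14 CPM in SHR and 0.803, 0.766 and 0.407 CPM in BNLx (log2 fold change 2.51 ± 0.340 SE, edgeR adjusted p = 0.0317).

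Of the 7 loci that were lower in SHR, 4 were at or near 0 there. STRG.54646 (chr19:27681763-27686315, minus strand, 4553 bases) had 2.65, 2.60 and 4.83 CPM in BNLx and 0.0231, 0.0472 and 0.0456 CPM in SHR. Its 179 counts in BNLx and 3 in SHR gave a ratio of 90.4 with a counting interval of 30.5 to 443 (edgeR adjusted p = 0.00721). It was the called locus with the most other called loci around it: 7 multi-exon loci without a reference gene within 1 Mb were also lower in SHR, with log2 fold changes from -5.91 (STRG.54608) to -1.10 (STRG.54576). The nearest of them, STRG.54670, was 107477 bases away (log2 fold change -2.53, edgeR adjusted p = 0.0179). In all, 6 of the 18 single-exon loci had another called locus within 1 Mb, and of all 147 called loci 60 did (40.8%).

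STRG.38357 (chr10:89702666-89710493, plus strand, 3 blocks) had 3.51, 2.99 and 4.31 CPM in BNLx and 0.117, 0.0944 and 0.228 CPM in SHR (log2 fold change -4.62 ± 0.413 SE, edgeR adjusted p = 0.0101). STRG.18466 (chr4:153055143-153055746, plus strand, 604 bases) lay within the locus of Hdhd5 and Tmem121b on the opposite strand, clear of its exons, and had 3.92, 6.16 and 2.45 CPM in BNLx and 0.0231, 0 and 0.0456 CPM in SHR. The ratio of its 230 counts in BNLx to 2 in SHR was 174 with a counting interval of 47.7 to 1448 (edgeR adjusted p = 0.0131), and its counts were 5.40 times the aligned pairs. The locus around it had 82.4 CPM in BNLx and 93.5 CPM in SHR (edgeR adjusted p = 0.941). Ccdc77, 162769 bases away, was higher in SHR, the opposite direction (log2 fold change 2.03, edgeR adjusted p = 0.02).

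STRG.24973 (chr6:94849783-94850333, minus strand, 551 bases) lay over exons of Jkamp, the gene of a membrane protein that binds the kinase JNK1, on the opposite strand. It had 119, 69.0 and 39.0 counts in BNLx 1 to 3 and 0 in every SHR library, and against 3 counts per SHR library it was at least 36.4-fold lower in SHR (edgeR adjusted p = 0.0247). Jkamp had 50.7 CPM in BNLx and 45.6 CPM in SHR (log2 fold change -0.16, edgeR adjusted p = 0.715). The aligned pairs recorded for STRG.24973 were 1076, of which its counts made up a ratio of 0.211.

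The remaining 3 of the 7 were well above 0 in both strains and also passed the count filter in both. STRG.5104 (chr1:211609522-211613777, minus strand, 2 blocks) had 34.2, 28.3 and 46.7 CPM in BNLx and 9.43, 10.03 and 8.52 CPM in SHR (log2 fold change -1.96 ± 0.214 SE, edgeR adjusted p = 0.0179). A called multi-exon locus 970390 bases away, STRG.5151, was lower in SHR too (log2 fold change -3.19, edgeR adjusted p = 0.00452). STRG.7940 (chr2:54939513-54944175, minus strand, 4663 bases) lay over exons of Ttc33 on the opposite strand and had 55.0, 64.2 and 57.4 CPM in BNLx and 26.6, 29.3 and 24.8 CPM in SHR (log2 fold change -1.13 ± 0.117 SE, edgeR adjusted p = 0.0163). Its counts were whole numbers and 17.7 times its aligned pairs. Ttc33 had 28.4 CPM in BNLx and 28.2 CPM in SHR (log2 fold change -0.01, edgeR adjusted p = 0.988). Plcxd3, 573082 bases away, was higher in SHR (log2 fold change 1.02, edgeR adjusted p = 0.0145).

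STRG.35257 (chr9:100169236-100171723, minus strand, 2488 bases) was the most abundant of the 18. It began 49 bases beyond the 3′ end of Kif1a, a kinesin motor that carries synaptic vesicle precursors along axons, on the same strand, and had 537, 631 and 617 CPM in BNLx and 345, 335 and 342 CPM in SHR (log2 fold change -0.80 ± 0.121 SE, edgeR adjusted p = 0.0483). Kif1a had 688 CPM in BNLx and 928 CPM in SHR, which did not pass the test (log2 fold change 0.43, edgeR adjusted p = 0.756). The exon of STRG.35257 lay over exons of the unnamed multi-exon locus STRG.35258 (chr9:100154128-100171723, opposite strand), which moved the other way, with 0.897, 0 and 0.001 CPM in BNLx and 78.4, 188 and 154 CPM in SHR (log2 fold change 8.30, edgeR adjusted p = 0.0179). The counts of STRG.35257 were 24.7 times its aligned pairs, and those of STRG.35258 were 0.183 times its own. How reads were divided between both loci in each strain was not tested.

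Some loci had counts in only 1 strain. With 0 counts in all BNLx libraries and at least 10 in every SHR library there were 4 loci (0.118% of 3381, background 0.0768% of all loci), STRG.49942 and STRG.16791, STRG.34387 and STRG.5860. The reverse pattern was met by 3 (0.0887%, background 0.0121%), STRG.24973 and STRG.33933 and STRG.23922. STRG.49942 and STRG.24973 passed the test above, and STRG.16791, STRG.34387 and STRG.33933 were under the count filter and were not tested. STRG.5860 and STRG.23922 fell outside the rule for named loci and are named after their values were seen. STRG.16791 (chr4:61788214-61788857, minus strand) lay inside the locus of Akr1b8, an aldo-keto reductase, and LOC100910708 on the opposite strand, and had 22.0, 22.4 and 22.8 counts in SHR, at least 4.47-fold above 3 counts per BNLx library. That locus itself was lower in SHR, at 75.5 CPM in BNLx and 20.3 CPM in SHR (log2 fold change -1.89, edgeR adjusted p = 0.0303), the opposite direction.

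STRG.34387 (chr9:58313606-58313908, minus strand, 303 bases) was 1707626 bases from its nearest reference locus, Slc39a10, and had 45.6, 12.9 and 22.0 counts in SHR, at least 4.57-fold above the same limit. STRG.33933 (chr9:30940350-30942781, minus strand) lay inside Lmbrd1, which encodes a lysosomal membrane protein of cobalamin transport, on the opposite strand, and had 24.0, 14.7 and 11.4 counts in BNLx and 0 in SHR, at least 8.31-fold lower in SHR. Lmbrd1 had 133 CPM in BNLx and 136 CPM in SHR (log2 fold change 0.03, edgeR adjusted p = 0.956).

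The strain differences of the single-exon loci were set beside those of their neighbors. Over 248 tested loci whose nearest reference locus was also tested, Pearson's r of the log2 fold changes was 0.129 and Spearman's rho 0.147. Pearson's r was 0.123 over the 73 pairs whose single-exon locus had overlapping exons and 0.121 over the other 175. Spearman's rho differed between these groups, at 0.00847 and 0.208. By position r ran from -0.62 over 16 pairs before a 5′ end (rho -0.50) to 0.417 over 12 pairs inside a reference locus on the same strand (rho 0.545). The larger positional groups lay between, at 0.221 over 25 pairs beyond a 3′ end, 0.124 over 28 pairs near on the opposite strand, 0.121 over 97 pairs inside or over a reference locus on the opposite strand and 0.158 over 70 pairs farther away. Against the nearest multi-exon locus of any kind, r was 0.0747 over 542 pairs (rho 0.0914). There rho was 0.0252 over the 221 pairs with overlapping exons and 0.172 over the other 321. These are descriptions across loci, which share the same 6 libraries and, where exons overlap, reads.

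The longest spans among the tested loci came from distant blocks that the assembly gave 1 locus name. STRG.41247 (chr12:10474023-10967323, minus strand) spanned 493301 bases with 3 blocks, of which the longest transcript had 3149 bases. It had 4.06, 4.68 and 2.18 CPM in BNLx and 3.39, 6.04 and 5.53 CPM in SHR, which overlapped. STRG.19135 (chr4:180096857-180232552, minus strand, over LOC100912509 on the same strand) had 65.4 ± 5.48 CPM in BNLx and 58.7 ± 13.0 CPM in SHR (SD, n = 3), and STRG.52902 (chr18:30415601-30495551, plus strand) had 37.6 ± 3.99 and 37.7 ± 2.26 CPM. STRG.45777 (chr14:72889039-72951765, minus strand) had 25.8 ± 2.06 and 24.96 ± 1.14 CPM. STRG.7364 (chr2:27713821-27783503, plus strand), 122032 bases from Fam169a, had 10.1, 10.9 and 9.81 CPM in BNLx and 2.61, 7.83 and 7.12 CPM in SHR. All BNLx libraries were above all SHR libraries, but SHR 1 lay far below SHR 2 and SHR 3 and the difference did not pass the test (log2 fold change -0.82, edgeR adjusted p = 0.578). None of these 5 loci passed the test. Without SHR 1 and BNLx 3, STRG.7364 (log2 fold change -0.49, edgeR adjusted p = 0.0436) and STRG.19135 (-0.29, adjusted p = 0.0409) did. The p-values of that fit come out too small, since its libraries were left out for their distance. In that fit 216 of the 564 single-exon loci tested passed, as did 4393 of all loci, against 147 of all loci with all libraries.

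Whether the transcripts of a locus changed by different amounts could be asked in 47 of the 3381 loci, which had at least 2 transcripts past the count filter, and 2 passed (edgeR adjusted p of 0.05, against a background of 4.26% of 7742 loci). In STRG.34958 (chr9:85551277-85552173, minus strand), 8690 bases beyond the 3′ end of Serpine2, a serine protease inhibitor, the transcripts were 2 separate blocks of 212 and 302 bases. The longer block had 0 counts in all BNLx libraries and 160, 56.9 and 50.8 counts in SHR, or 15.6%, 19.5% and 16.5% of the locus (edgeR adjusted p = 0.0006), while the locus as a whole had 15.4 ± 3.24 CPM in BNLx and 17.2 ± 5.69 CPM in SHR (SD, n = 3). Its counts were 8.09 times the aligned pairs.

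In STRG.2109 (chr1:85513569-85517515, minus strand), the 2 transcripts shared a block of 1500 bases that aptardi had ended short of the original 3947 bases. The original transcript held 20.8%, 28.2% and 27.8% of the locus in BNLx and 1.10%, 2.12% and 0% in SHR, so that the strains did not overlap (edgeR adjusted p = 0.0137). The whole locus had 32.3 ± 1.92 CPM in BNLx and 25.8 ± 4.35 CPM in SHR (SD, n = 3, log2 fold change -0.32, edgeR adjusted p = 0.558). Its exons lay over those of the multi-exon locus STRG.2108 on the opposite strand, which had 21.4 and 21.2 CPM.

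The next loci by p were not called. In STRG.9153 (chr2:136992374-136993837, plus strand) the transcript that aptardi ended at 600 bases held 0.172%, 0% and 1.37% in BNLx and 0.602%, 8.75% and 13.0% in SHR, overlapping through SHR 1 (edgeR adjusted p = 0.212). In STRG.49041 (chr16:20485024-20491036, plus strand) the original transcript of 6013 bases held 5.90%, 0% and 0% in BNLx and 13.8%, 16.3% and 23.1% in SHR (edgeR adjusted p = 0.424). The strains did not overlap there, and its exons lay over those of STRG.49042 on the opposite strand. In STRG.19135 the transcript that aptardi ended at 1700 bases held 21.4%, 30.1% and 43.5% in BNLx and 44.4%, 60.7% and 51.6% in SHR, again without overlap (edgeR adjusted p = 0.434).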

How the data were processed

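Whole brain polyA RNA of 3 BNLx and 3 SHR rats was read from both ends (100 bases each) over 3 lanes, of which 1 held all 6 libraries. The authors aligned reads with HISAT2 to strain genomes made from rn6, merged the alignments, assembled transcripts with StringTie 1.3.5 and Ensembl 99 as the guide, extended the set of 3′ ends (aptardi 1.0.0) and estimated abundances with RSEM. The deposited expected counts are estimates of read pairs per locus and isoform, not scaled, and the deposited TPM values were scaled per length and to a fixed total within each library by the authors' RSEM run. RSEM divides a read among all transcripts it fits, so overlapping loci share reads. Coverage recorded in the deposited annotation was turned into read pairs as coverage times length over 200 bases.

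Expected counts were rounded and all 14471 loci with at least 50 counts in 2 of 3 replicates of a strain went into 1 quasi-likelihood fit (edgeR 4.0.16, R 4.3.3) with TMM scaling and strain as the term, two-sided, and Benjamini-Hochberg adjustment over all of them. Usage was tested with diffSpliceDGE. Tested on simulated data for the same comparison and 14471 loci, the fit called 12 of 50 loci changed by 1 on the log2 scale, 42 of 50 changed by 2 and 49 of 50 changed by 4. It also called 5 unchanged loci. The changed loci were drawn from loci of all kinds, and no simulated library was made to stand apart. Recovery among single-exon loci, whose replicates varied more, was not measured. Alternatives used DESeq2 1.42.0, limma 3.58.1 (log2 of TPM with a pseudocount of 1 or 0.1), other filters and thresholds, a replicate block and left-out libraries. Totals per library (11747048 to 41333078) set the counting error, which is all that intervals and bounds cover. No source says whether the rats of a strain shared a litter or cage. p-values measure the spread between these libraries.

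The named loci were up to 15 per direction past the test, the 10 with the highest TPM, up to 5 at 0 in 1 strain and at 10 or more counts in each library of the other, the 5 longest spans and up to 5 of the usage test. The loci, the lists and the tests were chosen with earlier results of these data known, and positions against multi-exon loci were added after the data were seen. Sequences of the loci were not analysed here.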

Additional observations from a re-analysis of the deposited data

How the results depend on the processing

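Of the 18 single-exon loci that passed the test, 18 were also called with DESeq2 size factors, with DESeq2 itself and with a filter of 10 counts, 16 with no filter, and 14 and 15 with limma at pseudocounts of 1 and 0.1 TPM. The number called was 52 of 627 with DESeq2, 37 of 1568 with a filter of 10 counts, 30 of 3308 with no filter and 28 of 630 at an adjusted p of 0.1. Among loci of all kinds these settings called 543, 198, 173 and 247, against 147 in the main fit. Without both SHR 1 and BNLx 3, 4393 of all loci and 216 of 564 single-exon loci were called, of which 13 were among the 18. The rest of the 18 were under the count filter in that last fit and were not tested in it. Leaving out 1 library gave 3 to 19, and 20 to 152 among all loci. Of the 18, 15 had no exon overlap, and 15 had expected counts that were not far from their genome coverage. Both counts only take loci off the list of the main fit, without a new fit. They therefore cannot show whether the result depends on such loci. The directions of the 18 did not reverse in any of the fits above in which they were tested.

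The deviations of same-numbered samples from their group means correlated at -0.0659, 0.35 and -0.241 for replicates 1, 2 and 3, positive for replicate 2 alone, and no label ties the numbers together, so they were not taken to pair the samples. With the replicate block edgeR called 0 of these loci (94 at an unadjusted p of 0.05 or less) and 0 of all loci, and the usage test called 1.

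Lowering the level to a mean of 0.5 TPM gave 1934 loci. The difference between strains in the share of counts ran from -0.282 to -0.112 percentage points when 1 library was left out. Counting as near to a reference locus what lay within 5 kb gave 77 loci beyond a 3′ end and 73 before a 5′ end, and within 50 kb gave 384 and 214, with 440 farther away. The correlation with neighbors ran from 0.103 to 0.195 without 1 library and was 0.0859 without both that stand apart. The usage test called 1 to 4 loci without 1 library and 0 with limma on voom weights (3 at an unadjusted p of 0.05 or less). The causes of these changes were not tested.

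With 3 libraries a strain, 2751 of the 3381 loci were below the filter and were not tested. A filter of 10 counts tested 1568 loci.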
